A study of Mus musculus with 30 samples.

Results

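The mitochondrial carrier family Slc25 was taken as every gene whose symbol is Slc25a followed by a number, on probe sets that name a single gene. Where a gene had several probe sets, the one that was brightest on average across the 30 arrays was read. This gave 40 carriers of 17097 genes, read from 73 probe sets, with 20 carriers holding several probe sets. The reference gene table lists 47 protein-coding genes with such a symbol. The others among these were not analysed here.

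The expression microarrays compared mice that lack the mitochondrial protease ClpP (labelled ClpP KO, here KO) with their wild-type littermates (WT). Each genotype was profiled on 3 arrays in each of 5 tissues (testis, liver, skeletal muscle, brain and heart), which gave 10 groups. All mice had the C57BL/6 background. The labels used here give no age, sex or animal number, so p-values measure the spread between arrays of a group, and tissues of 1 animal may have entered several groups. Every comparison below is a difference of log2 signal, KO minus WT, or 1 WT tissue minus the mean of the other 4 WT tissues. A difference was called at an adjusted p under 0.05 from limma, fitted over all genes and arrays.

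ClpP is the proteolytic core of a chaperone-assisted protease of the mitochondrial matrix. Most carriers of the Slc25 family are small proteins of the inner mitochondrial membrane, built from repeated pairs of membrane-spanning helices. Most exchange or import particular metabolites, such as ADP against ATP, phosphate, aspartate against glutamate, acylcarnitine, iron or cofactors. They thus join cytosolic to mitochondrial metabolism. Those of the inner membrane are made in the cytosol and inserted through the TIM22 import route, with small TIM chaperones in the intermembrane space.

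The genotype labels were checked on Clpp itself. The KO minus WT difference of Clpp was -3.23 in testis, -5.39 in liver, -4.82 in muscle, -4.86 in brain and -5.56 in heart, and it was called in all 5 tissues by limma. Hepatocyte markers had a median log2 level of at least 12.60 on every liver array of either genotype, and fast fibre markers of at least 13.07 on every muscle array. Some arrays stood apart. Heart KO arrays 2 and 3 carried the atrial light chain Myl7 at 12.63 and 12.79, against 3.59 on heart KO array 1 and between 2.95 and 7.42 on the heart WT arrays. On the same 2 arrays the fat hormone Adipoq stood at 8.03 and 9.28, against 2.57 on heart KO array 1. Testis WT array 3 held the epididymal transcript Lcn5 at 11.70, against 2.83 and 2.82 on the other testis WT arrays. Muscle WT array 1 held the protamine transcript Prm1 at 8.11, against 3.13 and 2.93 on the other muscle WT arrays. The hepatocyte marker Alb stood at 8.33, 6.91 and 5.03 on the heart KO arrays, against 3.40, 5.53 and 3.19 on the heart WT arrays. On muscle KO array 1 Alb stood at 7.30, against 2.94 and 3.78 on the other muscle KO arrays. The median level of the hepatocyte markers was at most 3.44 on the heart KO arrays and 3.25 on the muscle KO arrays.

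Promoter sequences of the ADP/ATP carriers Slc25a4 and Slc25a5, of the aspartate/glutamate carriers Slc25a12 and Slc25a13 and of the liver carrier Slc25a47 are shown because the first 4 are pairs of paralogs whose tissue patterns are compared below, and Slc25a47 had the widest excess of any carrier in a WT tissue. Each is the run of 250 bases before the annotated start in RefSeq, 5′ to 3′ on the gene's strand, in build GRCm38.p6. Slc25a4 lies at chr8:46211063-46211312 (minus strand), Slc25a5 at chrX:36795347-36795596 (plus), Slc25a12 at chr2:71367756-71368005 (minus), Slc25a13 at chr6:6217174-6217423 (minus) and Slc25a47 at chr12:108850879-108851128 (plus). Capitals mark matches, on either strand, to the CCAAT box (CCAAT), the GC box (GGGCGG), the E-box (CACGTG), the TATA box (TATAAA) or a nuclear receptor half-site (AAGGTCA), and no match overlapped another.
Slc25a4 upstream window: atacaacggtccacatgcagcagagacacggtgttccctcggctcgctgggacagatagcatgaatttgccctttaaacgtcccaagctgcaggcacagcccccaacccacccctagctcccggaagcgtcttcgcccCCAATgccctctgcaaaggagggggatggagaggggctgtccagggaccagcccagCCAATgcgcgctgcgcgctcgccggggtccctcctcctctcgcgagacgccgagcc
Slc25a5 upstream window: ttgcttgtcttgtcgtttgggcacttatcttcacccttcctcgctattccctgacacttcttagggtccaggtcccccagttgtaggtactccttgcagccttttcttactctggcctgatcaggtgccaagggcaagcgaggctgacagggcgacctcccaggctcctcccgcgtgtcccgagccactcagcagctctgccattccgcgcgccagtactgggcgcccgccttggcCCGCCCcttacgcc
Slc25a12 upstream window: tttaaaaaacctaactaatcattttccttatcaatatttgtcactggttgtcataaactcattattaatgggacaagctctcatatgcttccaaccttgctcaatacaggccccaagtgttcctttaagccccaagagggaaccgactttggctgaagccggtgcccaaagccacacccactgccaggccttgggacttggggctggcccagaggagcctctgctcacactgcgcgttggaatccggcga
Slc25a13 upstream window: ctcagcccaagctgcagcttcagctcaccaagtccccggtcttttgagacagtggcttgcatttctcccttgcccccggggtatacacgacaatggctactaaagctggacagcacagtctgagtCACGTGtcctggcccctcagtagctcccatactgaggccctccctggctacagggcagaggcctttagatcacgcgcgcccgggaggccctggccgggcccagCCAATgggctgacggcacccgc
Slc25a47 upstream window: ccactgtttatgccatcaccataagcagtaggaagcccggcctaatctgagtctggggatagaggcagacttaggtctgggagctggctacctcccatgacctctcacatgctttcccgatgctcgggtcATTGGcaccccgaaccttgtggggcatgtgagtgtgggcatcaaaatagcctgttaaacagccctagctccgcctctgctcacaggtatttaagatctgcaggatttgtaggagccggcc

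The Slc25a4 window held 2 CCAAT boxes, the Slc25a5 window 1 GC box, the Slc25a13 window 1 CCAAT box and 1 E-box, and the Slc25a47 window 1 CCAAT box. None of these letters occurred in the Slc25a12 window. GC content was 64.8% for Slc25a4, 61.6% for Slc25a5, 49.6% for Slc25a12, 62.8% for Slc25a13 and 54.4% for Slc25a47. Windows were found for 31 of the 40 carriers, 40 windows in all. GGGCGG was present in 75% of these windows and in 32.7% of all 32851 windows of the same length. CCAAT was in 47.5% against 33.8%, CACGTG in 17.5% against 6.02%, TATAAA in 2.5% against 12.4% and AAGGTCA in 2.5% against 4.08%. The median GC content was 57.8% over the carriers' windows and 52.4% over all windows.

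In wild-type mice the carriers differed widely between tissues. The 5 WT tissues differed for 39 of 40 carriers by limma's moderated F, where 87.9% of all genes did. The exception was the folate carrier gene Slc25a32, at adjusted p = 0.0990. The median distance between the highest and the lowest tissue was 3.03 on the log2 scale over the carriers and 2.02 over all genes. Among genes above a log2 level of 4 in some group, taken as the limit of low signal, it was 3.12 for 38 carriers and 2.68 for all such genes. Of these 38, 15 were highest in liver, 10 in heart, 5 in testis, 4 in muscle and 4 in brain. Slc25a27, an uncoupling protein-like carrier, and Slc25a32 stayed under 4 in every group.

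**Figure D1:**
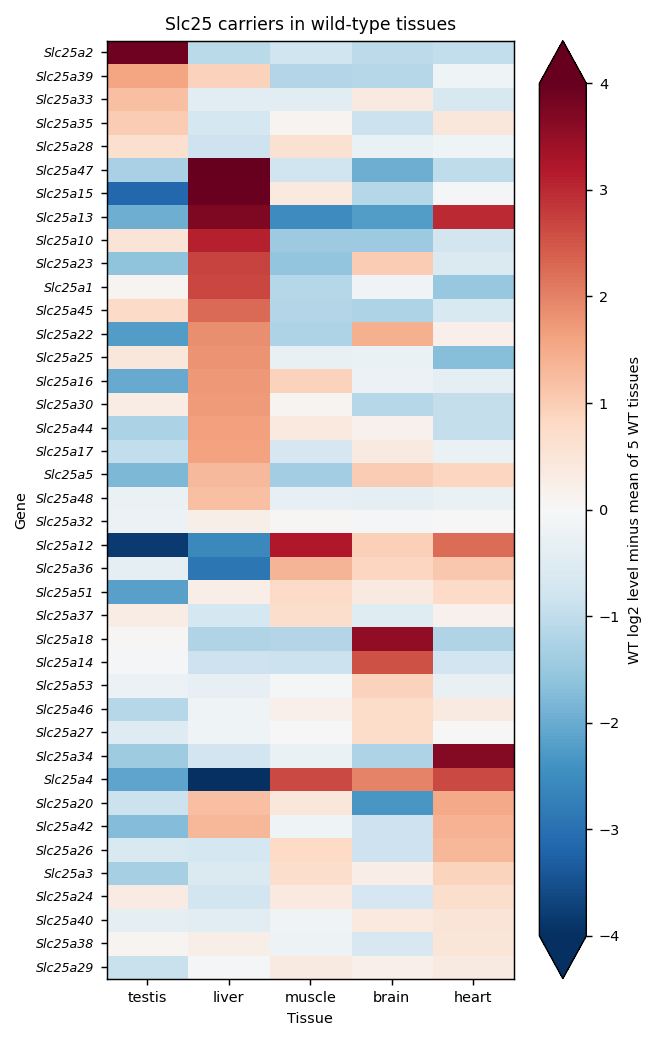
Log2 level of each carrier in each WT tissue (mean of 3 arrays) minus its mean over the 5 WT tissues, with colours clipped at 4 above and below. Genes (rows) are grouped by the tissue with the highest level. Slc25a47 and Slc25a15 stand out in liver, Slc25a34 in heart, Slc25a18 in brain and Slc25a2 in testis.

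In WT liver 21 carriers were higher and 16 lower than the mean of the other tissues. The shares of all genes were 25.5% and 40.8%, and 66.3% in either direction. Slc25a47, a carrier known mainly from liver, averaged 10.42 ± 0.61 in WT liver (SD, n = 3), against 4.10 as the mean of the other WT tissues, a log2 difference of 6.32 ± 0.20 (SE). Slc25a15, which brings ornithine to the mitochondrial steps of the urea cycle, averaged 10.68 ± 0.24 in WT liver, with a difference of 4.96. Its next highest tissue, muscle, averaged 7.09. The carriers Slc25a13 (4.66), which feeds aspartate to the cytosol, Slc25a10 (3.91), a dicarboxylate carrier, and Slc25a23 (3.40), an ATP-Mg/phosphate carrier, completed the leading group in liver. The widest deficit of any carrier was also in liver, where Slc25a4 averaged 5.45 ± 0.46, a difference of -6.41 from the other WT tissues.

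In WT heart 18 carriers were higher and 17 lower (61.1% of all genes in either direction, 27.5% higher and 33.6% lower). Slc25a34, a carrier of unsettled role, averaged 9.33 ± 0.20 in WT heart and 4.73 in the other WT tissues, a difference of 4.60 ± 0.20. All WT heart arrays stood between 9.10 and 9.47 for Slc25a34, and no other WT array exceeded 5.89. Slc25a13 (3.72), Slc25a4 (3.30), Slc25a12 (2.80) and the carnitine/acylcarnitine carrier Slc25a20 (1.90), needed to burn long-chain fatty acids, followed. Slc25a20 averaged 10.48 in WT heart and 10.17 in WT liver, which did not differ by limma (adjusted p = 0.209).

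In WT muscle 15 carriers were higher and 15 lower (63.7% of all genes in either direction, 26.3% higher and 37.4% lower). Slc25a12 led with a difference of 4.0 ± 0.22, followed by Slc25a4 (3.30), the pyrimidine nucleotide carrier Slc25a36 (1.68), Slc25a16 (1.14), tied to coenzyme A supply, and Slc25a26 (0.99), which imports S-adenosylmethionine. In WT brain 16 were higher and 19 lower (74.7% of all genes in either direction, 28.1% higher and 46.5% lower). The glutamate carrier Slc25a18 averaged 7.88 ± 0.05 in WT brain and 3.47 in the other tissues, a difference of 4.42 ± 0.13. Slc25a14, an uncoupling protein-like carrier, differed by 3.20, Slc25a4 by 2.47, the glutamate carrier Slc25a22 by 1.79 and Slc25a5 by 1.29.

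In WT testis 9 carriers were higher and 25 lower (72.8% of all genes in either direction, 32.1% higher and 40.7% lower). Slc25a2, an ornithine carrier in human, averaged 7.50 ± 0.06 in WT testis and 2.62 in the other WT tissues, a difference of 4.88 ± 0.18. Outside testis no WT array exceeded 2.86 for Slc25a2, which is under the limit of low signal. Slc25a39 (1.98), which carries glutathione, the pyrimidine nucleotide carrier Slc25a33 (1.51), and the carriers Slc25a35 (1.25) and Slc25a45 (0.95), of less settled role, also stood higher in WT testis.

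Paralogs that carry the same substrates had different tissue patterns. Slc25a12 had WT means of 10.98 in muscle, 10.02 in heart, 8.73 in brain, 5.20 in liver and 3.96 in testis, and each neighbouring pair in this order differed by limma. Slc25a13 had WT means of 9.50 in liver, 8.74 in heart, 3.82 in testis, 3.54 in brain and 3.24 in muscle. Liver and heart differed for Slc25a13 (adjusted p under the threshold), and testis differed from muscle by 0.58, whereas testis against brain (adjusted p = 0.145) and muscle against brain (0.136) did not pass. Thus muscle was the highest tissue for Slc25a12, whereas Slc25a13 was under the limit of low signal, 4, in WT muscle, brain and testis. Its lowest mean was in muscle, which did not pass against brain. Slc25a4 and Slc25a5 were the ADP/ATP carriers among the 40 carriers read, and Slc25a31 was not among the 40. Slc25a4 averaged 13.22 in WT heart and 13.22 in WT muscle, which did not differ by limma (adjusted p = 0.991). It averaged 12.55 in brain, 8.46 in testis and 5.45 in liver. Slc25a5 averaged 11.84 in WT liver, 11.57 in brain, 11.41 in heart, 9.14 in muscle and 8.74 in testis. Liver against brain (adjusted p = 0.137) and brain against heart (0.371) did not pass for Slc25a5.

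**Figure D2:**
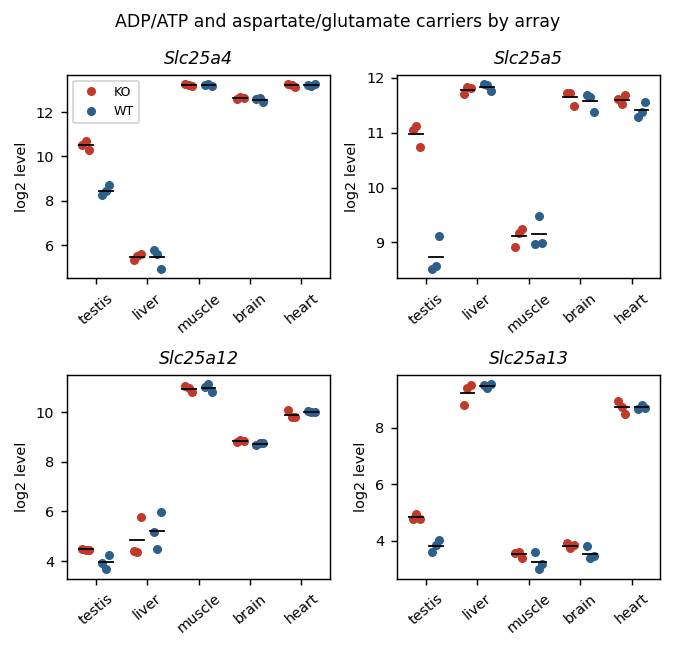
Log2 level of Slc25a4, Slc25a5, Slc25a12 and Slc25a13 on every array (points; lines are group means of 3 arrays), KO left of WT in each tissue. Each panel has its own axis. In testis every KO array lies above every WT array for each carrier shown, though Slc25a12 was not called there. Arrays did not overlap, in either direction, for 63.5% of all genes in testis.

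Loss of ClpP went with changes of carrier genes mainly in testis. There 27 of 40 carriers were called by limma, 19 higher and 8 lower in KO, where 56.2% of all genes were called, 32.8% higher and 23.4% lower. The median KO minus WT difference was 0.51 over the carriers and 0.02 over all genes. Among genes with a mean level of at least 6 the medians were nearer, 0.86 over 17 carriers and 0.69 over 5168 genes. The composition of the tissue differed too: all 18 spermatid and sperm markers fell, with a median difference of -4.51, all 11 Sertoli cell markers rose (median 1.56), all 7 Leydig cell markers rose (1.55), and of 9 macrophage markers 7 rose and 1 fell. The median level of the spermatid and sperm markers lay between 5.78 and 7.44 on the KO arrays and between 11.01 and 11.60 on the WT arrays. That of the Sertoli markers lay between 6.12 and 6.35 on the KO arrays and between 4.75 and 5.02 on the WT arrays. That of the Leydig markers lay between 8.20 and 9.15 on the KO arrays and between 6.94 and 7.45 on the WT arrays. Earlier germ cell markers did not fall. The median level of the spermatocyte markers lay between 8.79 and 9.03 (KO) and between 8.55 and 8.88 (WT). That of the spermatogonia markers lay between 5.78 and 5.83 (KO) and between 4.51 and 5.60 (WT). In bulk testis RNA, fewer cells of a type and less RNA per cell cannot be told apart, and the part of these markers in the carrier differences was not tested.

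**Figure D3:**
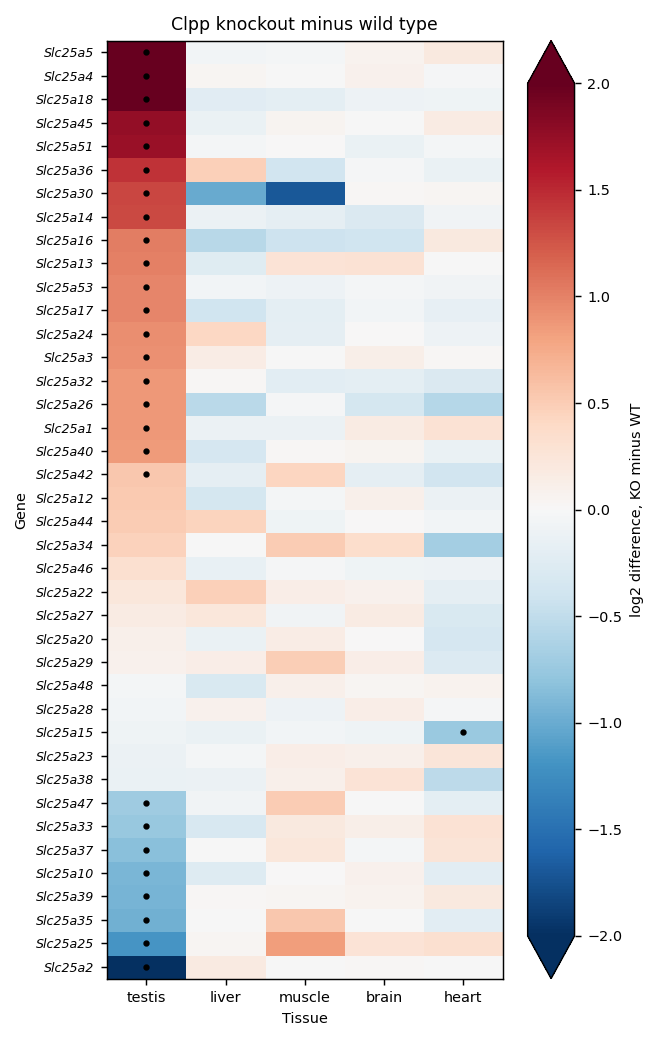
KO minus WT difference in log2 level for the 40 carriers (rows) in 5 tissues (columns), with colours clipped at 2 above and below; a dot marks an adjusted p under 0.05 by limma. Dots fill 27 rows in testis and 1, Slc25a15, in heart.

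Of 6 carriers of adenine nucleotides and phosphate, 4 were higher and 1 lower in KO testis, where 32.8% of all genes were higher and 23.4% lower; the median difference was 0.92 over these 6, and nothing particular to them was tested. Slc25a5, the ADP/ATP carrier of many dividing tissues, stood at 11.05, 11.13 and 10.75 on the testis KO arrays, against 8.52, 8.58 and 9.12 on the testis WT arrays. Every KO array lay above every WT array, and the difference was 2.24 ± 0.15 (SE, limma adjusted p = 2.52e-12). In testis the KO and WT arrays did not overlap for 63.5% of all genes, the share that stands beside each such statement for testis. Slc25a4, the ADP/ATP carrier of heart and muscle, stood at 10.52, 10.68 and 10.29 in KO testis, against 8.24, 8.43 and 8.70 in WT testis. These groups did not overlap either, with a difference of 2.04 ± 0.15. The phosphate carrier Slc25a3, which supplies phosphate for ATP synthesis, averaged 11.51 ± 0.09 in KO testis and 10.60 ± 0.04 in WT testis, a rise of 0.91. Slc25a24, an ATP-Mg/phosphate carrier, rose by 0.93.

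Slc25a25, another ATP-Mg/phosphate carrier, went the other way. It stood at 4.47, 4.56 and 4.55 in KO testis, against 5.80, 5.55 and 5.76 in WT testis, with no overlap and a difference of -1.18 ± 0.36 (limma adjusted p = 0.00655). Probe sets of the ADP/ATP carriers were not alike. For Slc25a5, 3 of 4 probe sets rose by between 2.09 and 2.24. The remaining dim one, averaging 4.18 over all arrays, differed by 0.26 and was not called. Every probe set of Slc25a5 has a name that marks shared sequence. The fit without such probe sets therefore held no value for Slc25a5. For Slc25a4 the second, dim probe set differed by 0.25 and was not called.

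Of 8 cofactor and other nucleotide carriers, 7 rose and 1 fell in KO testis, against the same shares of all genes (32.8% higher and 23.4% lower). Slc25a51, which imports NAD, averaged 7.78 ± 0.16 in KO testis and 6.06 ± 0.52 in WT testis, a rise of 1.72 that was called on all 3 of its probe sets. Slc25a36 rose by 1.44, Slc25a16 by 1.03, the peroxisomal cofactor carrier Slc25a17 by 0.98, Slc25a32 by 0.87 and the coenzyme A carrier Slc25a42 by 0.53. The call of Slc25a42 was lost without testis KO array 3 (limma adjusted p = 0.161), testis WT array 1 (0.0600) or testis WT array 2 (0.0790). Slc25a32 reached only 3.48 in KO testis and Slc25a42 only 3.78, both under the limit of low signal. Slc25a26 rose by 0.86 on its brightest probe set, while a second probe set, which averaged 4.73 over all arrays, fell by 1.17, so these 2 probe sets gave called differences of opposite sign. The 1 carrier of this list that fell was Slc25a33, by 0.75.

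Of 11 amino acid and glutathione carriers, 3 were higher and 2 lower in KO testis, which is 45.5% called against 56.2% of all genes. Slc25a18 stood at 6.28, 6.67 and 6.26 in KO testis, against 4.56, 3.84 and 4.75 in WT testis. All KO arrays lay above all WT arrays, with a difference of 2.02 ± 0.16 (limma adjusted p = 5.65e-11). Slc25a13 rose by 1.01 and the glutathione carrier Slc25a40 by 0.86. Slc25a39, which shares that substrate, averaged 11.71 ± 0.26 in KO testis and 12.65 ± 0.03 in WT testis, a difference of -0.93 with the same sign on all 4 of its probe sets.

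Slc25a2 had the widest change of the family. It stood at 3.74, 3.31 and 4.98 in KO testis, against 7.52, 7.43 and 7.55 in WT testis. The KO arrays were spread, with array 3 the highest, but all lay below WT, and the difference was -3.49 ± 0.23 (limma adjusted p = 1.01e-12). Slc25a12 (0.52, adjusted p = 0.128), Slc25a44 (0.50, 0.107), Slc25a22, Slc25a29, Slc25a38 and Slc25a15 were not called in testis.

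**Figure D4:**
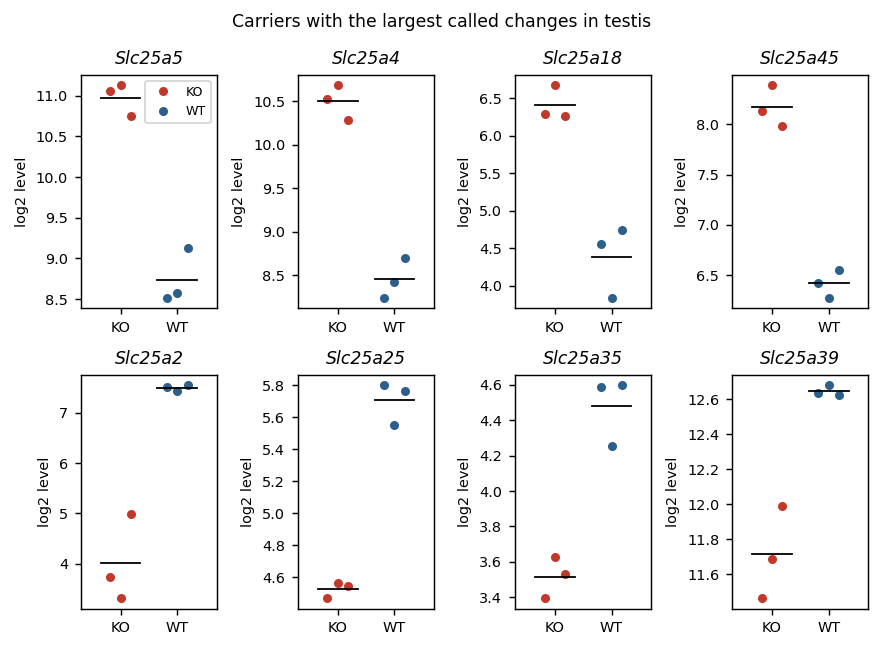
Log2 level on each testis array (points; lines are means of 3 arrays), KO left of WT, for the 4 carriers with the widest called rises (top) and falls (bottom). Each panel has its own axis. In each panel shown the KO and WT arrays do not overlap, as for 63.5% of all genes in testis.

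Among the remaining roles, the citrate carrier Slc25a1 rose by 0.86 and the dicarboxylate carrier Slc25a10 fell by 0.91. The uncoupling protein-like carriers Slc25a14 and Slc25a30 rose by 1.33 and 1.34, and Slc25a27 was not called. Of 5 probe sets of Slc25a30 only the 2 brightest were called, and the call was lost without testis KO array 1 (limma adjusted p = 0.0589) or testis WT array 1 (0.0508), and with the average of probe sets (0.101). Mitoferrin Slc25a37, which imports iron, fell by 0.84 on its brightest probe set and was lower on all 3 probe sets, while the other mitoferrin, Slc25a28, differed by -0.06 and was not called. The carnitine/acylcarnitine carrier Slc25a20 differed by 0.11 and was not called. Of 7 carriers of other or unsettled role, Slc25a45 (1.75) and Slc25a53 (0.98) rose, and Slc25a35 (-0.96) and Slc25a47 (-0.71) fell. The fall of Slc25a47 was not called without testis WT array 3, where it stood at 4.84 against 3.72 and 3.67 on the other WT arrays. Without it the difference was -0.33 (limma adjusted p = 0.255), and the call was also lost without testis KO array 3 (0.0706).

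Carriers that stood highest in WT testis relative to the other WT tissues did not all move alike in KO testis. Both comparisons use the same testis WT arrays, so their values are given side by side. Slc25a2 had an excess of 4.88 in WT testis and a KO minus WT difference of -3.49, Slc25a39 had 1.98 and -0.93, Slc25a33 had 1.51 and -0.75, and Slc25a35 had 1.25 and -0.96. Slc25a45 had an excess of 0.95 and a KO minus WT difference of 1.75.

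Genes that insert or serve the carriers are read against the share of all genes called in testis, 32.8% higher and 23.4% lower in KO. Of 10 measured import genes, 6 rose and 2 fell: Timm10, a small TIM chaperone, rose by 1.37, Timm29, a TIM22 subunit, by 1.07 and the receptor Tomm20 by 0.75, whereas Tomm22 fell by 0.57. Of 16 other mitochondrial membrane transporters, 10 rose and the other 6 were not called. The outer membrane channel Vdac1 rose by 1.78, Tspo by 1.51, the calcium uptake regulator Micu2 by 1.45 and Sfxn2 by 1.15. Of 25 enzymes that use carried metabolites, 9 rose and 5 fell, or 56% called against 56.2% of all genes. Ornithine aminotransferase Oat rose by 2.01 and glutamate dehydrogenase Glud1 by 1.94, whereas Gpd2, of the glycerol phosphate shuttle, fell by 3.84 and the mitochondrial creatine kinase Ckmt2 by 3.44.

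The KO minus WT difference itself differed between tissues for 26 of 40 carriers by limma's moderated F, where 52.3% of all genes passed. The smallest p-values belonged to Slc25a2 (adjusted p = 5.74e-10), Slc25a5 (2.36e-09), Slc25a18 (9.00e-09), Slc25a4 (1.22e-08) and Slc25a45 (1.38e-07). Averaged over 5 tissues, 11 carriers were called, 8 higher and 3 lower, where 33.6% of all genes were called, 17.1% higher and 16.5% lower. The higher ones were Slc25a5 (0.48), Slc25a4 (0.43), Slc25a45 (0.37), Slc25a51 (0.30), Slc25a18 (0.28), Slc25a36 (0.27), Slc25a13 (0.26) and Slc25a3 (0.23). The lower ones were Slc25a2 (-0.66), Slc25a10 (-0.26) and Slc25a15 (-0.22). With each array left out in turn, Slc25a10 lost this call in 23 of 30 fits and Slc25a15 in 6. With the average of a gene's probe sets the mean difference was 0.16 for Slc25a4 (limma adjusted p = 0.0801), 0.14 for Slc25a36 (0.0974), -0.21 for Slc25a10 (0.0697) and -0.11 for Slc25a15 (0.175), none of them called. Slc25a10 (0.0613) and Slc25a15 (0.0532) also lost the call with quantile normalization.

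Outside testis few carriers moved. In heart 1 of 40 was called, and lower, against 2.18% of all genes called and 1.07% lower, and 5 of 40 had an unadjusted p under 0.05, against 13.8%. Slc25a15 stood at 5.81, 6.04 and 5.83 on the heart KO arrays, against 6.43, 6.54 and 6.92 on the heart WT arrays. The groups did not overlap, as for 19.3% of all genes in heart, and the difference was -0.74 ± 0.17 (limma adjusted p = 0.0178). The call rested on few arrays: the adjusted p was 0.0750 without heart KO array 3 and 0.127 without heart WT array 3. A second, dim probe set of Slc25a15 differed by 0.31 in heart and was not called, and with the average of its probe sets Slc25a15 differed by -0.21 (adjusted p = 0.544). With the heart arrays fitted alone the adjusted p was 0.0934. Without heart KO arrays 2 and 3, which carried the atrial and fat transcripts, the difference was -0.82 and was not called. That fit leaves 1 heart KO array, which is assumed to vary like the other groups. Why the call was lost there was not tested.

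Heart also held the nearest misses. The glycine carrier Slc25a38 differed by -0.53 (limma adjusted p = 0.0549) and Slc25a26 by -0.57 (0.0636). For both genes the heart KO arrays all lay below the heart WT arrays, where 19.3% of all genes had no overlap in either direction. Slc25a34, whose level set WT heart apart from the other WT tissues, averaged 8.65 ± 0.43 in KO heart and 9.33 ± 0.20 in WT heart, with overlapping arrays and no call (adjusted p = 0.191). Outside the Slc25 symbols, the brown fat uncoupling protein Ucp1 was called in heart, with 2.78, 6.89 and 8.07 on the KO arrays against 2.80, 2.90 and 2.83 on the WT arrays. The 2 high KO arrays are those that carried Adipoq and Myl7, and the groups overlapped. The part of fat and atrial tissue in these values was not tested. The median level of the adipocyte markers lay between 3.13 and 8.68 on the heart KO arrays and between 3.40 and 3.51 on the heart WT arrays.

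No carrier was called in liver, muscle or brain by limma, where 2.42%, 1.54% and 0.415% of all genes were. At an unadjusted p under 0.05, 6 of 40 passed in liver, 7 in muscle and 2 in brain, against 13.1%, 12.8% and 7.91% of all genes. Differences were under 0.5 in size for 37 carriers in liver, 35 in muscle and 40 in brain.

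The widest difference outside testis was that of Slc25a30, an uncoupling protein-like carrier first described in kidney, in muscle. It stood at 4.18, 4.53 and 3.89 on the muscle KO arrays, against 5.77, 5.54 and 6.39 on the muscle WT arrays. The groups did not overlap, as for 19.4% of all genes in muscle, and the difference of -1.70 ± 0.47 did not pass (limma adjusted p = 0.0667). That SE is pooled over all 10 groups. The SD of Slc25a30 was 1.05 in KO and 1.44 in WT liver, against 0.32 in KO and 0.44 in WT muscle. Slc25a30 was called in muscle when liver KO array 2, liver WT array 1 or liver WT array 3 was left out. With the muscle arrays fitted alone 0 carriers were called. In liver the same gene stood at 6.06, 7.68 and 5.72 in KO, against 8.85, 7.67 and 5.98 in WT, with overlap and a difference of -1.01. In the same muscle comparison 8 of 9 slow fibre markers rose, with a median difference of 3.19. The slow troponin Tnnc1 stood at 10.87, 10.45 and 10.65 in KO muscle, against 5.74, 3.91 and 8.10 in WT muscle, and the median level of the slow fibre markers lay between 10.45 and 10.87 on the KO arrays and between 5.89 and 8.10 on the WT arrays. The part of fibre type in the value of Slc25a30 was not tested. Ucp3, the muscle uncoupling protein, fell in KO muscle by 0.93 (limma adjusted p = 0.0482).

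**Figure D5:**
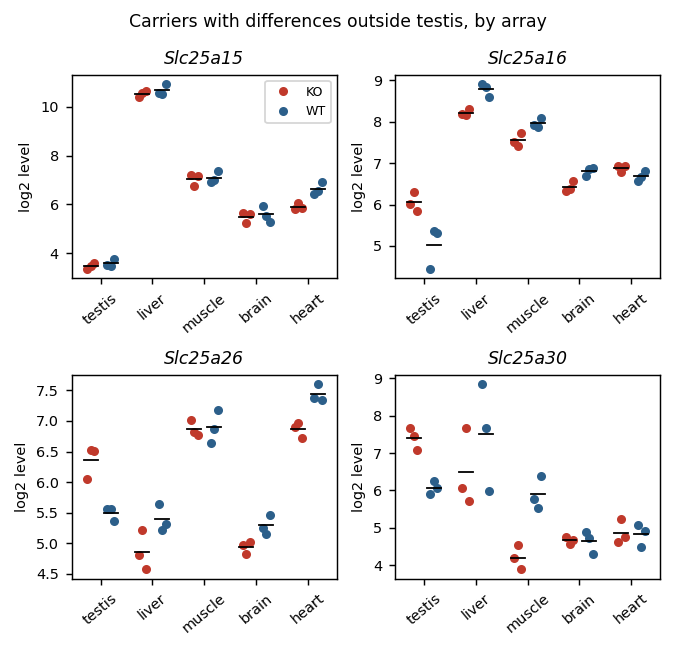
Log2 level of Slc25a15, Slc25a16, Slc25a26 and Slc25a30 on every array (points; lines are means of 3 arrays), KO left of WT in each tissue. Each panel has its own axis. Slc25a15 is lower in KO heart. Slc25a16 is lower in KO liver, muscle and brain, without a call in any of these, but not in KO heart or testis.

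Averaged over liver, muscle, brain and heart, 2 of 40 carriers were called, both lower, against 4.02% of all genes called and 2.55% lower. Slc25a26 differed by -0.37 ± 0.08 (limma adjusted p = 0.00947). It stood at 4.80, 5.21 and 4.57 in KO liver against 5.65, 5.22 and 5.32 in WT liver, and at 6.91, 6.96 and 6.73 in KO heart against 7.37, 7.60 and 7.34 in WT heart. In brain it stood at 4.96, 4.82 and 5.02 in KO, against 5.25, 5.15 and 5.47 in WT. KO lay below WT on all arrays of these 3 tissues, and in muscle the groups overlapped. No overlap, in either direction, was seen for 16.7% of all genes in liver, 15.8% in brain and 19.3% in heart. Slc25a16 differed by -0.29 ± 0.08 (limma adjusted p = 0.0480), a call that was lost in 21 of 30 fits that each left out 1 array.

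Slc25a16 stood at 8.18, 8.17 and 8.32 in KO liver, against 8.92, 8.83 and 8.60 in WT liver, a difference of -0.56 that was not called (limma adjusted p = 0.0828). In muscle it stood at 7.51, 7.41 and 7.73 in KO, against 7.93, 7.88 and 8.09 in WT. In brain it stood at 6.33, 6.37 and 6.57 in KO, against 6.69, 6.86 and 6.90 in WT. In liver, muscle and brain every KO array lay below every WT array. Arrays did not overlap, in either direction, for 16.7% of all genes in liver, 19.4% in muscle and 15.8% in brain. KO heart, at 6.93, 6.79 and 6.94, was not below WT heart, at 6.57, 6.66 and 6.82. In testis the sign was the opposite, a rise of 1.03.

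The ADP/ATP and aspartate/glutamate carriers were not called outside testis. Their KO minus WT differences in liver, muscle, brain and heart lay between -0.35 and 0.28. For Slc25a4 the differences were 0.03 in liver, -0.00 in muscle, 0.09 in brain and -0.02 in heart, each with an SE of 0.15. Slc25a5 differed by -0.05 in liver, -0.03 in muscle, 0.07 in brain and 0.19 in heart. Slc25a23 lies on the same chromosome as the deleted gene, 17, with 5 protein-coding genes between it and Clpp. It was called in no tissue, with differences of -0.11 in testis, -0.05 in liver, 0.13 in muscle, 0.10 in brain and 0.24 in heart.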

How the data were processed

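Total RNA of 30 tissue samples, 3 for each of 5 tissues in each genotype, was hybridised as biotin-labelled cRNA. The deposited log2 values were made by the authors with RMA in R 2.14.0, per the submitters' processing notes; whether all arrays were processed together is not given in the sources used here. Array medians lay between 3.24 and 3.38. Of 45141 probe sets, 28898 name 1 gene in the platform annotation, 551 name several and 15692 none; the brightest probe set by mean over all arrays stood for each of 17097 genes, and none of its values was changed.

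limma 3.58.1 (R 4.3.3) fitted 10 group means to all arrays with lmFit and eBayes, with 20 residual degrees of freedom, and p-values were adjusted by Benjamini-Hochberg over all genes. The difference between tissues, of genotype effect or of WT level, was a moderated F. Pairs of WT tissues were tested in the same fit. The fit was tested on simulated data first. Probe sets were also fitted over all 28898. The number of arrays limits the precision.

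Named are every carrier with a called KO minus WT difference in a tissue or in a mean of tissues, and the 5 widest excesses of each WT tissue. The 5 smallest p-values for the difference between tissues are also given. Others are given by count or because they lay near a call. The members and gene lists were chosen with earlier results of these data known. Same-numbered KO and WT arrays of a tissue deviated together with correlations between -0.127 and 0.243, not above 0.1 for every pair of any tissue, so that numbers were not taken to pair the samples. Alternatives changed the scaling, probe set rule, gene filter, prior, block and arrays used. Promoter windows are RefSeq's (GRCm38.p6). Motifs and figures were made with Python 3.11.15, pandas 2.3.3 and matplotlib 3.10.9.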

Additional observations from a re-analysis of the deposited data

Results flagged for a closer look

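The KO minus WT difference varied between tissues for 26 carriers, by limma's moderated F at an adjusted p under 0.05, where 52.3% of all genes passed. The size is given as the KO minus WT difference in testis minus its mean over liver, muscle, brain and heart. Among carriers of adenine nucleotides and phosphate it was 2.19 for Slc25a5, 2.02 for Slc25a4, 0.89 for Slc25a24, 0.84 for Slc25a3 and -1.54 for Slc25a25. Among cofactor and nucleotide carriers it was 1.77 for Slc25a51, 1.46 for Slc25a36, 1.32 for Slc25a16, 1.24 for Slc25a26, 1.18 for Slc25a17, 1.04 for Slc25a32, 0.61 for Slc25a42 and -0.82 for Slc25a33. Among amino acid and glutathione carriers it was 2.17 for Slc25a18, 0.95 for Slc25a40, 0.93 for Slc25a13, -1.02 for Slc25a39 and -3.53 for Slc25a2.

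The uncoupling protein-like carriers Slc25a30 and Slc25a14 had 2.0 and 1.49, and the mitoferrin Slc25a37 had -0.95. Of the carriers of less settled role, Slc25a45 had 1.73, Slc25a53 had 1.05 and Slc25a35 had -1.04. Slc25a34, with 0.42, and Slc25a38, with -0.06, were not called by limma for testis against the other tissues (adjusted p = 0.227 and 0.779). Both were lower in KO heart, by 0.68 and 0.53 on the log2 scale, without a call there. Slc25a34 was higher in KO than in WT muscle (means 5.90 and 5.38) and brain (4.75 and 4.40). Slc25a38 was higher in KO than in WT brain (5.35 and 5.08), and none of these differences was called. Neither gene passed the moderated F without heart KO arrays 2 and 3, a fit that leaves 1 heart KO array. No test of outlying samples was run on these groups of 3 arrays.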

How the results depend on the processing

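Counts of carriers called at an adjusted p under 0.05 by limma were recomputed under 10 alternatives and with each array left out. Clpp was called in all 5 tissues under each of them except the fit without heart KO arrays 2 and 3, for which it was not recomputed. Leaving out 1 array gave between 25 and 29 carriers in testis, 0 and 1 in liver, 0 and 1 in muscle, 0 and 0 in brain, 0 and 2 in heart, 9 and 13 for the mean of 5 tissues, 1 and 3 for the mean of 4, and 24 and 29 for the difference between tissues. For WT tissues it gave 30 to 35 in testis, 33 to 38 in liver, 24 to 31 in muscle, 32 to 35 in brain, 30 to 35 in heart, and 39 to 40 for any difference. The single array that lost the heart call was heart KO 3 or heart WT 3. Slc25a16 in the mean of 4 tissues lost its call in 21 of 30 such fits.

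In heart 0 carriers were called with the heart arrays fitted alone, 3 with median centring, 2 with genes above the median level, 1 with the average of probe sets (Slc25a38 in place of Slc25a15) and 0 without heart KO arrays 2 and 3, an alternative chosen after seeing the data. In the mean of 4 tissues 1 was called with quantile normalization, 1 without testis WT 3 and muscle WT 1, and 1 without heart KO arrays 2 and 3. In muscle 1, Slc25a36, was called with the average of probe sets. With the replicate number as a block 2 carriers were called in heart, 1 in the mean of 4 tissues, 29 in testis and 0 in liver, muscle and brain; the block moved no other count by over 1.5 times.

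Of 2538 values of single carriers under alternatives, 2459 kept direction and call, 77 lost the call and 2 turned: Slc25a26 in testis was -0.053 with the average of probe sets and -1.17 without probe sets whose names mark shared sequence, where another probe set is read. The cause of the other changes was not tested. Only 37 carriers had a probe set without such a name, and Slc25a5, Slc25a32 and Slc25a47 had none. Low signal limits Slc25a27 and Slc25a32, which stayed under 4 in every group, and Slc25a42 in testis, with means of 3.78 in KO and 3.25 in WT. The testis WT means of Slc25a13 (3.82), Slc25a24 (3.81) and Slc25a53 (3.28) were also under 4. So were the testis KO means of Slc25a35 (3.52) and Slc25a47 (3.36).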
